A study of Mus musculus with 20 samples.

Results

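The nucleolar ribosome biogenesis factors described here are 40 mouse genes chosen by name. They are the genes whose platform symbols begin with Nop, Utp or Rrp followed by a digit, together with Wdr43, Wdr12, Wdr3, Bop1, Pes1, Ncl, Fbl, Npm1, Nolc1, Dkc1, Gnl3, Polr1a and Polr1b. The rule uses names only, though it was set with earlier results of these data known. The array carried 81 probe sets for these genes, and all 40 members had a probe set above its array's median on at least 3 arrays, so all 40 were among the 12832 genes tested, of 18193 with a probe set. Livers came from male C57BL/6 mice aged 8 to 12 weeks. The groups were 5 non-manipulated controls, 3 mice with minor trauma, 4 that had severe trauma plus hemorrhagic shock lasting 1.5 h (called shock here), 4 given 1 h of resuscitation after the same shock and trauma, and 4 given 4.5 h of resuscitation. RNA of whole liver was hybridised to 1 array per sample. What the minor trauma consisted of and when those livers were taken are not given in the sources used here, and nothing in the labels says how the animals relate to one another.

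Ribosomes are assembled in the nucleolus. RNA polymerase I transcribes the long ribosomal RNA precursor there, small nucleolar ribonucleoproteins guide its methylation (box C/D) and pseudouridylation (box H/ACA), and a large particle called the small subunit processome cleaves and folds the part that becomes the 40S subunit. A second line of assembly factors matures the 60S subunit. Hepatocytes make large amounts of secreted protein, and the mRNAs of these factors are known to increase in liver cells that enter growth, for instance after partial hepatectomy. The transcription factor Myc, which with its partner Max binds the E-box CACGTG, is a known activator of many of these genes.

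The promoters are shown first because the E-box can be read in them. RefSeq windows of the GRCm38.p6 build, 250 bases before to 50 bases after each start, were given for 32 of the 40 members and not for Bop1, Fbl, Nop53, Npm1, Rrp12, Utp11, Utp23 and Utp6. CACGTG reads the same on both strands and was searched once. It occurred in 9 of the 32 members (28.1%) and in 2187 of all 27025 genes with a window (8.09%). The median GC content was 57.7% over the members' windows and 52.7% over all windows, and its part in these shares was not tested. The 4 genes with the motif whose mRNA was higher after 4.5 h of resuscitation are shown, then Pes1 and Utp14b, which carried it and were not called. Capitals mark the E-box.
Nop2 (chr6:125131796-125131855, plus strand): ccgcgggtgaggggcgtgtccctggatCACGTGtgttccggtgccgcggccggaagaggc
Utp18 (chr11:93885767-93885813, minus strand): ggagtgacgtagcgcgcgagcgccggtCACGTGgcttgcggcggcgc
Wdr43 (chr17:71616220-71616249, plus strand): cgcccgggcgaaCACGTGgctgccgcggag
Utp20 (chr10:88826765-88826789, minus strand): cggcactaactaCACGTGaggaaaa
Pes1 (chr11:3963965-3963994, plus strand): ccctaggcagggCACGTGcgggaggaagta
Utp14b (chr1:78658350-78658409, plus strand): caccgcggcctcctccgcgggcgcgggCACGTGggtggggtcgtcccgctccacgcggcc
In Nop2, Utp14b and Utp18 the E-box began 60, 63 and 20 bases upstream of the start on which the window was built. The gene record of Utp14b begins earlier, at 78657825, so its E-box lies inside that record. In Pes1, Wdr43 and Utp20 the E-box began at base 3, 18 and 38 counted from the window's start site. The other members with the motif were Utp25, Utp4 and Rrp7a.

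The first 250 bases of the window of Nop58, the member with the largest change in these livers, are shown because they hold no CACGTG. The gene record begins at 59684961, so the last of these bases lie inside it.
Nop58 (chr1:59684756-59685005, plus strand): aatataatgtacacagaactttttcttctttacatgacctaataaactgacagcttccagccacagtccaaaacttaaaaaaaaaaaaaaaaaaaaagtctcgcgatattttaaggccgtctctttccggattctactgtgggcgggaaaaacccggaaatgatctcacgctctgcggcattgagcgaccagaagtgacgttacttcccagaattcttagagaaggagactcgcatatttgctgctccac
Of the members called higher after 4.5 h of resuscitation, 4 of the 13 with a window had the motif (30.8%), and of those not called, 5 of 19 (26.3%). A match describes letters in a window and says nothing of binding.

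Values below are array signals on a log2 scale after a constant of 6 was added and the arrays were quantile normalized. Fold changes are on that scale and understate the change of dim genes. A gene was called where limma's adjusted p, taken over all 12832 genes, was at or below 0.05. The arrays differed by 2.07 times in median signal before normalization (14 to 29.1). On 2 arrays the profile did not follow its label closely. Control 5 correlated best with minor trauma 2 (r = 0.9827 across genes, which are not independent), and minor trauma 3 stood apart from all arrays, with a best correlation of 0.9497. For the members, the main results that rest on them are given with and without them. Counts for other gene lists and markers are given with all arrays only. A poly-A spike-in also divided the arrays into a spiked set and an unspiked set, each holding arrays of all groups, and values within the sets are given where they differ.

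Across the 5 groups the members were highest after minor trauma and after 4.5 h of resuscitation, and lowest in shock. The group mean was highest at 4.5 h for 20 members and after minor trauma for 16, and lowest in shock for 16. Limma's F test called 20 of the 40 members (50%), close to its share of all genes (45.4%). The called members were Gnl3, Nolc1, Nop14, Nop2, Nop56, Nop58, Polr1b, Rrp12, Rrp15, Rrp1b, Rrp36, Rrp9, Utp14a, Utp18, Utp20, Utp23, Utp4, Utp6, Wdr3 and Wdr43. The members' median deviation from the control mean was between 0.12 and 0.41 on the 4 arrays at 4.5 h, between 0.21 and 0.43 after minor trauma, between -0.14 and -0.08 in shock, and between -0.21 and 0.08 at 1 h. The lowest was that of 1 h array 1 and the highest that of minor trauma 3. All genes together had medians of -0.10 to -0.07 at 4.5 h, 0.13 on minor trauma 3, -0.04 and -0.01 on the other minor trauma arrays, -0.03 to -0.01 in shock and -0.07 to -0.05 at 1 h. Control 5, at 0.26, lay among the minor trauma and 4.5 h arrays, while the other controls ran from -0.16 to 0.06.

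**Figure D1:**
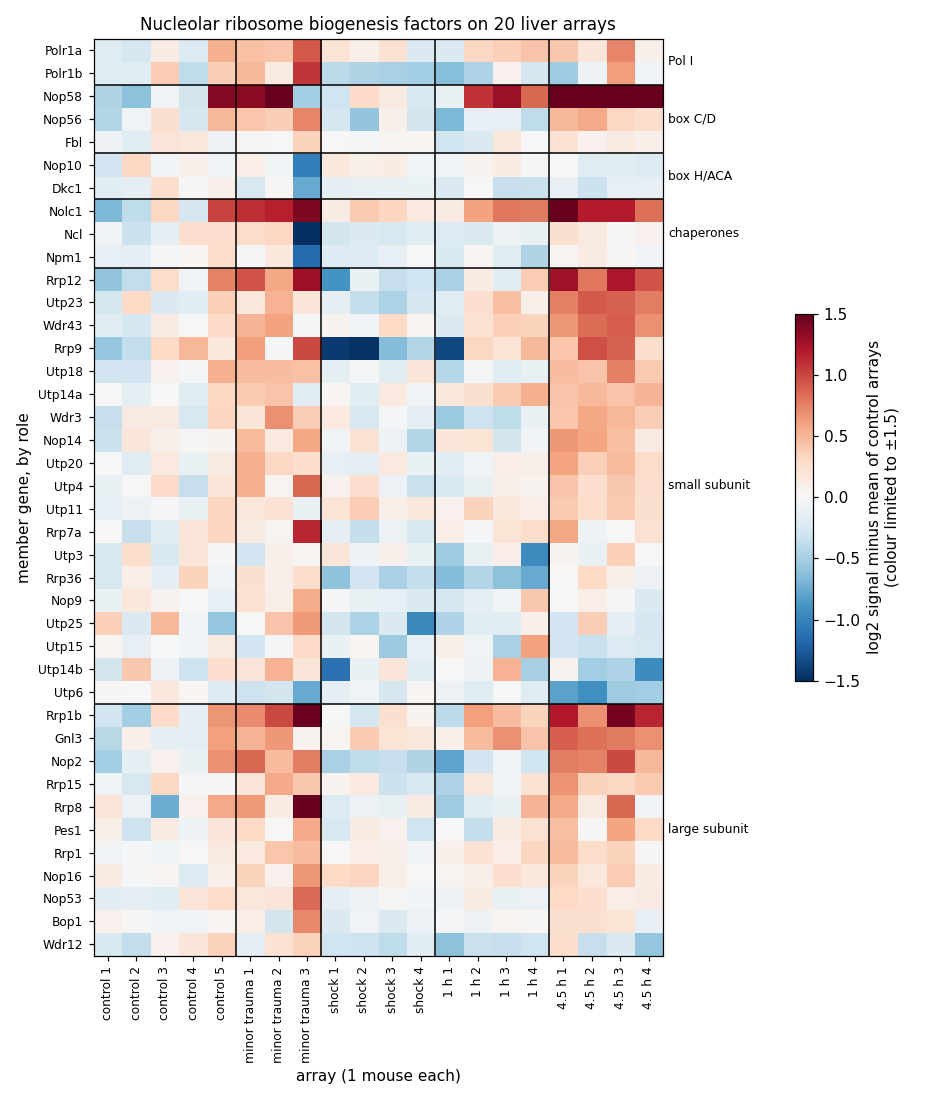
Each row is a member, grouped by role, and each column an array. Colour is the log2 signal minus the mean of the 5 control arrays, limited to 1.5 either way. The 4.5 h columns are mostly red and the shock columns mostly pale or blue. Control 5 resembles minor trauma 1 and 2, and minor trauma 3 has low Ncl, Npm1, Nop10 and Dkc1.

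**Figure D2:**
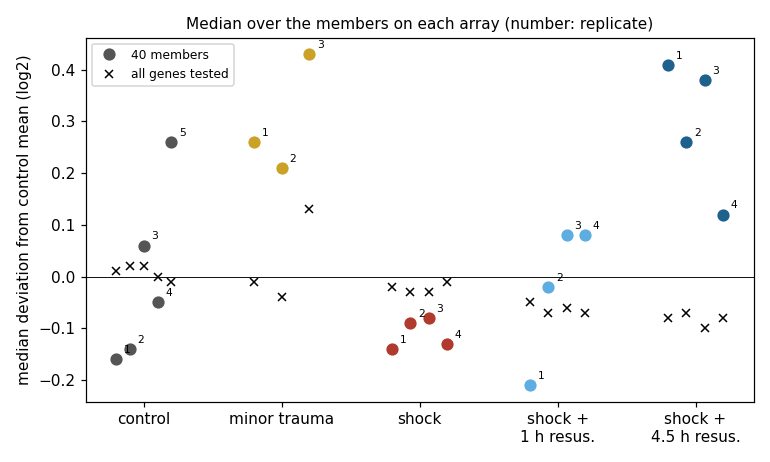
Median over the 40 members (circles, with the replicate number) and over all genes tested (crosses) of the log2 deviation from the control mean on each array. The 4.5 h arrays lie between 0.12 and 0.41 and the shock arrays between -0.14 and -0.08.

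The comparison of 4.5 h of resuscitation with control asked how the liver differs from untouched liver late in resuscitation. At this time 16 of the 40 members were higher (40%, where 15.1% of all genes tested were higher) and 1 was lower (2.5%, where 23.8% of all genes were lower). The median log2 difference was 0.33 over the members and -0.09 over all genes. The 16 were Nop58, Nolc1, Rrp1b, Rrp12, Utp23, Gnl3, Wdr43, Nop2, Utp18, Wdr3, Utp14a, Nop14, Rrp15, Utp20, Utp11 and Rrp1, and they included 9 of 19 small subunit factors and 5 of 11 large subunit factors. Without control 5 the count was 18 higher and 1 lower (15.9% and 24.5% of all genes). Nop56 (0.54 ± 0.17 SE, adjusted p = 0.0149) and Polr1a (0.48 ± 0.18, adjusted p = 0.0348) were then called too. Within the spiked arrays alone 9 were higher (9.33% of all genes) and 1 lower, and within the unspiked arrays 4 higher (9.18%) and 1 lower.

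The size of this count depended on the scaling. With the values as deposited, 3 members were called higher (6.15% of all genes) and 1 lower, and with arrays centred on their medians 8 (11.5%) and 1. The median of all genes was then -0.27 and -0.14, and the members' median 0.11 and 0.24, so that the members' median stayed above that of all genes by about the same distance. Calls of Nop58 and Rrp1b held under all 36 alternatives tried. The call of Rrp1, the smallest of the 16, held under 24 of them. Not all of the 36 put a call to the test. Updated gene symbols reused the same fit, and several alternatives left out an array of a group not compared here.

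Among the box C/D proteins, Nop58, a scaffold protein of the methylating particle, had the largest change of all members. Its log2 signal was 6.92, 6.77, 7.34, 7.11 and 8.76 in the controls, 8.73, 8.89 and 6.87 after minor trauma, 7.08, 7.67, 7.52 and 7.15 in shock, 7.27, 8.46, 8.68 and 8.24 at 1 h, and 9.5, 9.46, 9.61 and 9.38 at 4.5 h. All 4 arrays at 4.5 h were above every other array. Control 5 and minor trauma 1 and 2 came next, and minor trauma 3 lay with the other controls. The difference from control was 2.11 ± 0.38 (SE, n = 4 against 5, limma), or 4.32-fold, with an adjusted p of 0.000164. It was 2.46 ± 0.33 without control 5, 2.55 within the spiked arrays and 1.82 within the unspiked ones.

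Its partner Nop56 had 6.75, 7.13, 7.43, 6.92 and 7.68 in the controls, 7.60, 7.56 and 7.92 after minor trauma, 6.92, 6.59, 7.26 and 6.91 in shock, 6.51, 7.06, 7.06 and 6.80 at 1 h, and 7.68, 7.75, 7.49 and 7.44 at 4.5 h. The 4.5 h arrays overlapped only control 5, and the difference of 0.41 ± 0.18 was not called (adjusted p = 0.0728). Fibrillarin, Fbl, the methyltransferase of the same particle, read 8.59, 8.48, 8.86, 8.83 and 8.58 in the controls, 8.68, 8.68 and 9.0 after minor trauma, 8.66, 8.64, 8.71 and 8.70 in shock, 8.37, 8.45, 8.83 and 8.67 at 1 h, and 8.88, 8.73, 8.80 and 8.74 at 4.5 h. All its shock arrays lay just below its 4.5 h arrays, a pair not tested, and all other pairs of groups overlapped. Fbl was called in none of the 8 comparisons. The 3 box C/D proteins thus had log2 differences of 2.11, 0.41 and 0.12 at 4.5 h.

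The box H/ACA members Dkc1, the pseudouridine synthase, and Nop10, a small core protein, were not called in any comparison. At 4.5 h against control they had -0.17 ± 0.13 and -0.13 ± 0.16.

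Nolc1, a phosphoprotein that binds small nucleolar ribonucleoproteins, rose 2.29-fold (1.19 ± 0.25, adjusted p = 0.000592). It read 5.53, 5.83, 6.53, 5.95 and 7.23 in the controls, 7.32, 7.38 and 7.61 after minor trauma, 6.34, 6.61, 6.54 and 6.36 in shock, 6.33, 6.81, 7.01 and 6.99 at 1 h, and 7.80, 7.39, 7.41 and 7.04 at 4.5 h. Every minor trauma array and 3 of the 4 arrays at 4.5 h were above every control, and the lowest 4.5 h array lay under control 5. The more abundant nucleolar proteins Ncl and Npm1 were not called.

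Nucleolin, Ncl, which binds the ribosomal RNA precursor, read 9.88, 9.60, 9.78, 10.16 and 10.17 in the controls, 10.19, 10.23 and 8.26 after minor trauma, 9.64, 9.70, 9.68 and 9.73 in shock, 9.71, 9.70, 9.84 and 9.81 at 1 h, and 10.16, 10.05, 9.93 and 9.98 at 4.5 h. Nucleophosmin, Npm1, a chaperone of ribosomal particles and histones, read 10.58, 10.57, 10.67, 10.74 and 10.97 in the controls, 10.67, 10.87 and 9.55 after minor trauma, 10.51, 10.52, 10.58 and 10.70 in shock, 10.48, 10.73, 10.52 and 10.25 at 1 h, and 10.75, 10.83, 10.72 and 10.66 at 4.5 h. Both had their lowest value on minor trauma 3, and the other groups lay close together. Their differences at 4.5 h were 0.11 ± 0.26 and 0.03 ± 0.18 (adjusted p = 0.769 and 0.903).

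**Figure D3:**
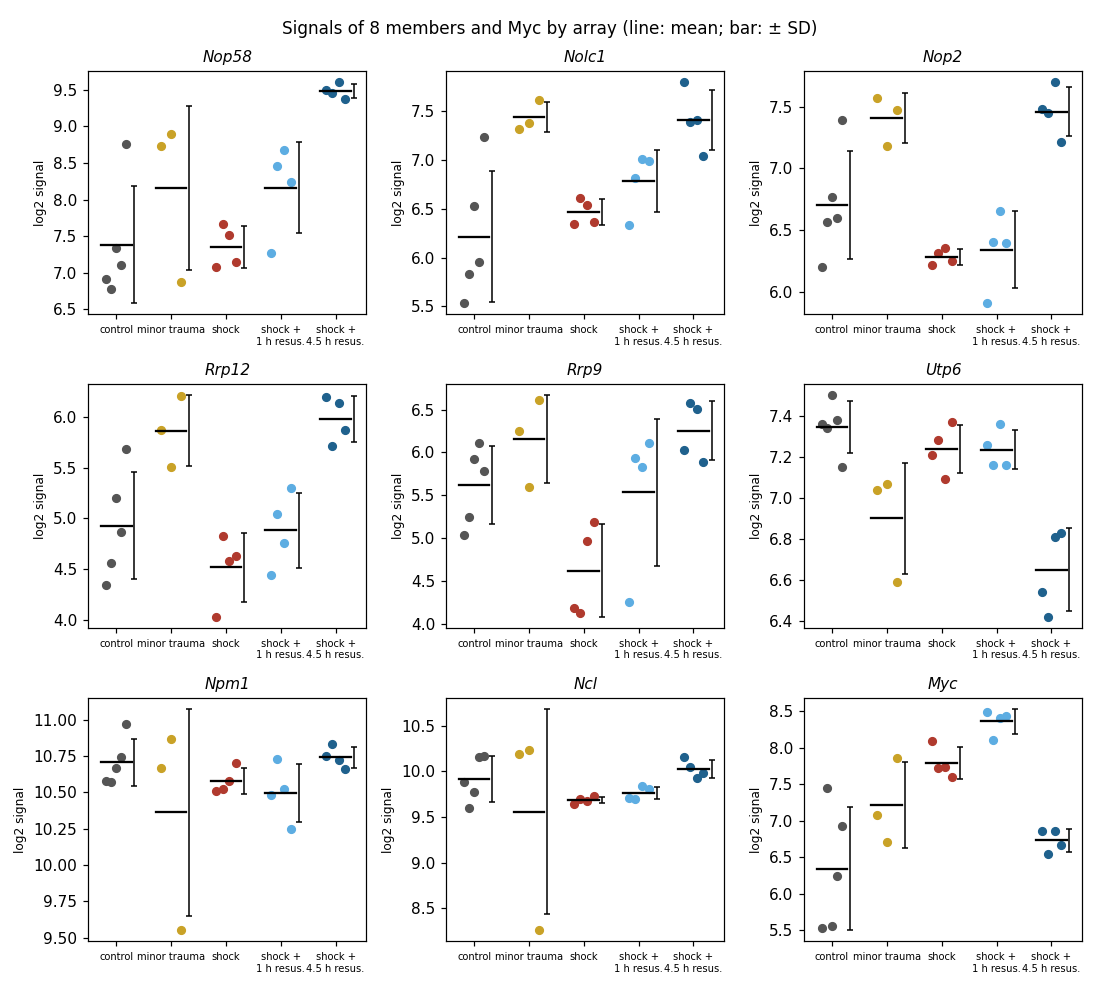
Log2 signal of 8 members and Myc on every array, by group. Points are arrays, lines the group means and bars ± SD (n = 5, 3, 4, 4 and 4). Nop58 is highest on all 4.5 h arrays, Nolc1, Nop2 and Rrp12 are high after minor trauma and at 4.5 h, Ncl and Npm1 are low on 1 minor trauma array, and Myc peaks at 1 h.

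Of RNA polymerase I the members are the catalytic core subunits Polr1a and Polr1b, and neither was called at 4.5 h. Polr1a, the largest subunit, read 5.84, 5.76, 6.13, 5.81 and 6.55 in the controls, 6.46, 6.43 and 6.93 after minor trauma, 6.23, 6.10, 6.24 and 5.81 in shock, 5.81, 6.33, 6.37 and 6.45 at 1 h, and 6.43, 6.20, 6.74 and 6.10 at 4.5 h. Polr1b, the next in size, read 5.95, 5.96, 6.52, 5.76 and 6.51 in the controls, 6.63, 6.27 and 7.21 after minor trauma, 5.74, 5.68, 5.66 and 5.64 in shock, 5.50, 5.68, 6.21 and 5.89 at 1 h, and 5.61, 6.06, 6.77 and 6.09 at 4.5 h. Controls and 4.5 h arrays overlapped for both, and the differences were 0.35 ± 0.19 and -0.01 ± 0.22.

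Of the small subunit factors, Rrp12, an assembly and export factor known from yeast, rose 2.07-fold (1.05 ± 0.25, adjusted p = 0.00189). It read 4.34, 4.56, 5.20, 4.87 and 5.68 in the controls, 5.87, 5.51 and 6.21 after minor trauma, 4.03, 4.83, 4.58 and 4.63 in shock, 4.44, 5.04, 4.76 and 5.30 at 1 h, and 6.20, 5.71, 6.14 and 5.87 at 4.5 h. All 4.5 h arrays were above all controls, by little above control 5. It is a dim member, above its array's median on 15 of 20 arrays.

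Utp23, whose yeast counterpart acts with a small nucleolar RNA in processome assembly, read 5.84, 6.40, 5.88, 5.93 and 6.47 in the controls, 6.28, 6.62 and 6.28 after minor trauma, 5.96, 5.75, 5.63 and 5.85 in shock, 5.93, 6.36, 6.56 and 6.19 at 1 h, and 6.86, 7.03, 6.99 and 6.87 at 4.5 h. Wdr43, a subunit of the UtpA complex that meets the precursor early, read 6.97, 6.86, 7.25, 7.12 and 7.41 in the controls, 7.63, 7.72 and 7.09 after minor trauma, 7.17, 7.06, 7.41 and 7.16 in shock, 6.90, 7.35, 7.48 and 7.45 at 1 h, and 7.77, 7.96, 8.02 and 7.80 at 4.5 h. For both genes the 4.5 h arrays were the 4 highest of the 20. The differences were 0.83 ± 0.15 for Utp23 and 0.77 ± 0.15 for Wdr43 (adjusted p = 0.000203 and 0.000375). The size for Utp23 rests on its main probe set. Its other probe sets had 0.33, 0.35 and 0.37, and only the last was called (adjusted p = 0.0413, limma). The other probe set of Wdr43 had 0.78.

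Utp18 and Wdr3 are subunits of the UtpB complex. Utp18 read 7.20, 7.19, 7.54, 7.47 and 8.01 in the controls, 7.94, 7.95 and 7.92 after minor trauma, 7.35, 7.45, 7.31 and 7.66 in shock, 7.06, 7.45, 7.30 and 7.36 at 1 h, and 7.94, 7.91, 8.23 and 7.87 at 4.5 h. Wdr3 read 7.16, 7.64, 7.64, 7.27 and 7.83 in the controls, 7.68, 8.19 and 7.88 after minor trauma, 7.65, 7.27, 7.49 and 7.37 in shock, 6.96, 7.19, 7.12 and 7.39 at 1 h, and 7.92, 8.08, 8.00 and 7.87 at 4.5 h. Both were high after minor trauma and at 4.5 h, with control 5 close to those arrays. At 4.5 h Wdr3 did not overlap the controls, and Utp18 overlapped control 5. Their differences from control were 0.51 ± 0.15 and 0.46 ± 0.14 (adjusted p = 0.00868 and 0.0133).

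Utp14a, an X-linked factor whose yeast counterpart activates a processome helicase, read 7.0, 6.85, 7.0, 6.81 and 7.30 in the controls, 7.38, 7.41 and 6.82 after minor trauma, 7.03, 6.82, 7.14 and 6.93 in shock, 7.16, 7.23, 7.38 and 7.53 at 1 h, and 7.41, 7.47, 7.42 and 7.49 at 4.5 h. The 4.5 h arrays were all above the controls, and the difference was 0.46 ± 0.13 (adjusted p = 0.00928). Its retrogene copy Utp14b, known for its role in sperm formation, was not called (-0.47 ± 0.26). The copies are similar in sequence, so that hybridisation may be shared between them. The remaining small subunit factors called higher, Nop14, Utp20 and Utp11, had differences of 0.45, 0.42 and 0.32. The other probe sets of Utp11 had 0.07 and -0.66, neither called, so its call rests on the main probe set. The small subunit factors not called were Rrp9, Utp4, Rrp7a, Utp3, Rrp36, Nop9, Utp25, Utp15 and Utp14b, with differences from -0.47 to 0.63. For Utp15 the main probe set had -0.26, but its other probe set was higher by 0.70 ± 0.22 (adjusted p = 0.0187, limma). The direction for Utp15 mRNA is therefore not settled.

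Utp6, also a UtpB subunit, was the only member called lower at 4.5 h. It read 7.36, 7.34, 7.50, 7.38 and 7.15 in the controls, 7.04, 7.07 and 6.59 after minor trauma, 7.21, 7.28, 7.09 and 7.37 in shock, 7.26, 7.16, 7.36 and 7.16 at 1 h, and 6.54, 6.42, 6.81 and 6.83 at 4.5 h. On this probe set the 4.5 h arrays were below all controls (-0.70 ± 0.12, adjusted p = 0.000138). A second probe set of the gene differed by 0.77 ± 0.16 in the opposite direction (adjusted p = 0.000744) and the remaining one by -0.04, so the direction for Utp6 mRNA is not settled.

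Of the large subunit factors, Rrp1b rose 2.17-fold (1.12 ± 0.24, adjusted p = 0.000691). Its log2 signal was 5.84, 5.61, 6.41, 5.97 and 6.79 in the controls, 6.83, 7.11 and 7.59 after minor trauma, 6.11, 5.86, 6.37 and 6.18 in shock, 5.73, 6.74, 6.59 and 6.46 at 1 h, and 7.33, 6.81, 7.56 and 7.27 at 4.5 h. The minor trauma and 4.5 h arrays lay above all controls, the lowest of each just above control 5. The other probe sets of Rrp1b had smaller differences of 0.70 ± 0.18 (adjusted p = 0.00393, limma) and 0.33 ± 0.19 (not called). From 1 h to 4.5 h these had 0.28 and 0.22, and in shock against minor trauma -0.45 and -0.56, none called. The paralog Rrp1 had a difference of 0.28 ± 0.10 at 4.5 h against control (adjusted p = 0.0382), and its other probe set -0.02 ± 0.16 (not called).

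Gnl3, the GTPase nucleostemin, read 8.03, 8.53, 8.30, 8.31 and 9.06 in the controls, 8.95, 9.10 and 8.5 after minor trauma, 8.49, 8.84, 8.65 and 8.61 in shock, 8.54, 8.92, 9.14 and 8.87 at 1 h, and 9.34, 9.27, 9.23 and 9.13 at 4.5 h. Nop2, which methylates 28S ribosomal RNA, read 6.20, 6.57, 6.77, 6.60 and 7.39 in the controls, 7.57, 7.18 and 7.47 after minor trauma, 6.22, 6.32, 6.36 and 6.25 in shock, 5.91, 6.41, 6.66 and 6.40 at 1 h, and 7.48, 7.45, 7.70 and 7.21 at 4.5 h. Gnl3 was higher at 4.5 h than on all controls, and Nop2 than on all controls but control 5. The differences were 0.80 ± 0.17 and 0.75 ± 0.19 (adjusted p = 0.000722 and 0.00272). Rrp15 was called too (0.43 ± 0.15, adjusted p = 0.0285). Bop1, Pes1 and Wdr12, which form the PeBoW complex of 60S assembly, were not called in this comparison (0.14 ± 0.14, 0.34 ± 0.16 and -0.22 ± 0.17), nor were Rrp8, Nop16 and Nop53, with 0.38, 0.25 and 0.20.

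**Figure D4:**
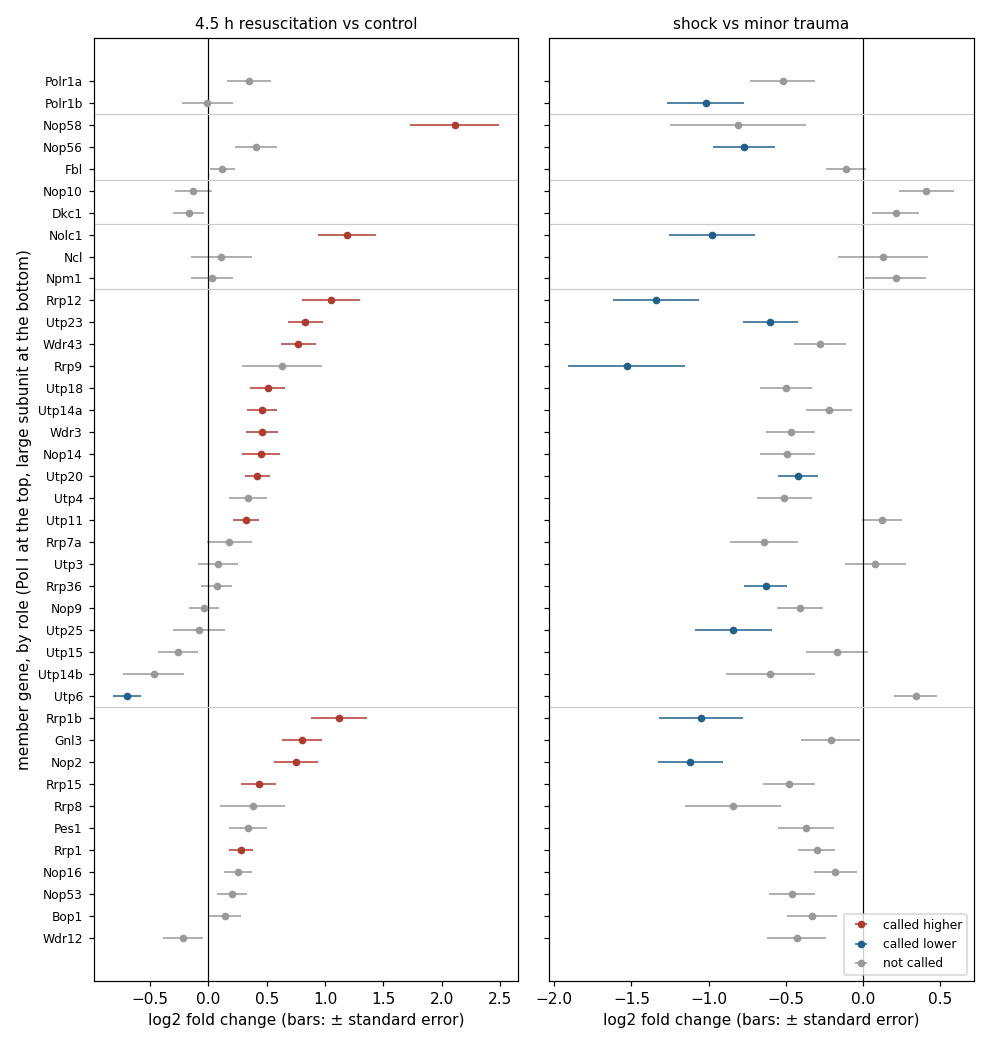
Log2 fold changes of the 40 members (points) with standard errors (bars), by role, for 4.5 h of resuscitation against control on the left and shock against minor trauma on the right. Red points were called higher, blue lower and grey not called. On the left 16 are red and 1 blue, and on the right 11 are blue.

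Of the 17 members called in this comparison, 8 had other probe sets that passed the filter, 14 in all. Among those 14, 11 had the sign of the main probe set, 4 were called in its direction and 1, that of Utp6, in the opposite one.

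The comparison of minor trauma with control asked what the lesser injury does. Only Nolc1 (1.22 ± 0.27, adjusted p = 0.0219) and Rrp1b (1.05 ± 0.26, adjusted p = 0.03) were higher, 2 of 40 where 2.07% of all genes were, and no member was lower (0 of 40, where 1.37% were). An unadjusted p under 0.05 was found for 21 members (52.5%) and for 21.3% of all genes. The median difference was 0.36 over the members and 0 over all genes, with 33 of the 40 above 0. The count changed with single arrays. No member was called without control 1 or without control 2, nor without minor trauma 3, where no other gene tested was called either. Without control 5, 10 members were higher (5.2% of all genes) and 1 lower (4.35%), the 10 being Nolc1, Rrp1b, Rrp12, Nop2, Polr1a, Nop56, Utp18, Gnl3, Nop53 and Rrp1, with Nolc1 at 1.48 ± 0.21 (adjusted p = 0.000179). Without minor trauma 2, 7 were higher (2.72% of all genes) and 1 lower, and without minor trauma 1, 3 were higher (3.21%) and 1 lower. Without both control 5 and minor trauma 3, 8 were higher (3.23%). With arrays centred on their medians 11 were higher (5.05%), and the median of all genes was then 0.14.

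In shock no member was called against control in either direction (2.03% of all genes were higher and 1.08% lower), with 4 members (10%) and 14.2% of all genes at an unadjusted p under 0.05. The median difference was -0.09 over the members and -0.03 over all genes. After 1 h of resuscitation no member was higher (4.61% of all genes were) and 1 was lower (5.31% of all genes were). That member was Rrp36, a small subunit factor, with 7.44, 7.78, 7.53, 8.02 and 7.63 in the controls and 7.02, 7.24, 7.06 and 6.92 at 1 h. The groups did not overlap, and the difference was -0.62 ± 0.13 (adjusted p = 0.00237). Without control 5, Nop58 (1.13 ± 0.33), Nolc1 (0.82 ± 0.20), Gnl3 (0.57 ± 0.14) and Utp14a (0.41 ± 0.13) were also called, all higher (5.41% of all genes were), with adjusted p from 0.00777 to 0.0492. Between 1 h of resuscitation and shock no member was called higher or lower (0.873% and 0.374% of all genes were), with 4 members (10%) and 10.6% of all genes at an unadjusted p under 0.05.

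Against minor trauma, shock livers had lower levels of 11 members and higher levels of none (5.38% of all genes were lower and 4.18% higher). This comparison separates severe injury with blood loss from the lesser one, as far as the labels describe it. The median difference was -0.47 over the members and -0.02 over all genes, and 33 of the 40 were below 0. The largest was in Rrp9, a protein of the U3 small nucleolar particle, which read 6.25, 5.60 and 6.61 after minor trauma and 4.19, 4.13, 4.97 and 5.19 in shock. The groups did not overlap, and the difference was -1.53 ± 0.38 (n = 4 against 3, limma, adjusted p = 0.0148). In shock Rrp9 was dim, above its array's median on only 2 of 4 arrays, and the same held for Rrp12. Rrp12 (-1.34 ± 0.28), Nop2 (-1.12 ± 0.21), Rrp1b (-1.05 ± 0.27), Polr1b (-1.02 ± 0.25) and Nolc1 (-0.98 ± 0.28) followed. Utp25, Nop56, Rrp36, Utp23 and Utp20 had differences from -0.84 to -0.42. For all 11 the shock arrays lay below the minor trauma arrays, but the same arrays picked these genes. How many of all genes were so separated was not counted.

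Without minor trauma 3, 5 members were called lower than after minor trauma (2.96% of all genes), namely Nop58 (-1.45 ± 0.40), Rrp12 (-1.16), Nop2 (-1.08), Rrp36 (-0.59) and Ncl (-0.52 ± 0.13, adjusted p = 0.0226). Ncl had 0.13 ± 0.29 with all arrays, so 1 array set its sign. Rrp9 was then at -1.30 with an adjusted p of 0.0834. Within the spiked arrays 3 members were lower (1.05% of all genes) and within the unspiked arrays, where minor trauma has 1 array, none (0% of all genes). Without shock 2, 4 members were lower (2.95%). With arrays centred on their medians 17 were lower (7.47%), with the median of all genes at -0.13.

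Between 1 h and 4.5 h of resuscitation 12 members rose (30%, where 14.9% of all genes did) and 1, Utp6, fell (18.2% of all genes did). The members' median was 0.33 and that of all genes -0.04. The 12 were Nop58 (1.33 ± 0.40), Nop2 (1.11 ± 0.20), Rrp12 (1.09 ± 0.26), Rrp1b (0.86 ± 0.25), Wdr3 (0.81 ± 0.15), Nop56 (0.74 ± 0.19), Utp18, Rrp36, Utp23, Wdr43, Rrp15 and Utp20, with adjusted p from 0.000186 to 0.0303. The 1 h and 4.5 h arrays did not overlap for any of the 12, which is no further support, as the same arrays picked these genes. The share of all genes without overlap was not counted. Neither control 5 nor the minor trauma arrays enter these differences, though they enter the estimate of the spread. Within the spiked arrays 3 rose (5.59% of all genes) and 1 fell, and within the unspiked arrays 7 rose (8.49%). With the values as deposited 3 rose (4.47%), with the median of all genes at -0.16.

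Of the members higher at 4.5 h than in control, 10 were also higher than at 1 h. These comparisons share the 4.5 h arrays, and how many of all genes were higher in both was not counted. Against minor trauma, 4.5 h livers had 2 members higher, Nop58 (1.32 ± 0.44, adjusted p = 0.027) and Utp23 (0.54 ± 0.18, adjusted p = 0.0247), and none lower, where 10.7% of all genes were higher and 18.6% lower. Without minor trauma 3 neither was called (Nop58 0.68 ± 0.40, adjusted p = 0.252, and Utp23 0.49 ± 0.20, adjusted p = 0.0856), and Utp6 was lower (-0.40 ± 0.14, adjusted p = 0.0405). Without minor trauma 1, 1 member was higher, and without minor trauma 2, 5 were higher and 1 lower. The comparison also turned with the scaling. With arrays centred on their medians 5 members were lower and none higher, and with the values as deposited 2 were lower and none higher. The median of all genes was then -0.27 and -0.46, and the members' median -0.26 and -0.45, against -0.08 and 0.05 after quantile normalization. The shares of all genes called without single arrays or under these scalings are not given here, so these counts describe the members only.

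Other genes of the same pathway were taken from lists of known factors that hold none of the members. These lists were written with earlier results of these data known. Their counts at 4.5 h stand against 15.1% of all genes higher and 23.8% lower. At 4.5 h against control, 14 of 35 further small subunit factors (40%) were higher and 1 was lower, with a median difference of 0.26. Heatr1, a UtpA subunit, read 7.74, 8.11, 7.97, 7.39 and 8.43 in the controls and 9.93, 9.78, 10.09 and 9.99 at 4.5 h. The groups lay far apart, and the difference was 2.02 ± 0.16 (adjusted p = 2.69e-09). Tsr1 (1.19), Ngdn (1.09) and Nol10 (0.89) followed. Of 35 tested 60S assembly and export factors 15 were higher (42.9%) and none lower (median 0.40), led by Gnl2 (1.56 ± 0.22), a GTPase of the pre-60S particle, Eif6 (1.28 ± 0.12), which keeps the 60S subunit from joining too early, Nip7 (1.15) and Rbm34 (0.97).

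Of 11 tested partners of small nucleolar ribonucleoproteins 8 were higher (72.7%) and 1 lower at 4.5 h. They included the cochaperone Rpap3 (1.38 ± 0.20), Gar1 (1.29 ± 0.23), a core protein of the box H/ACA particle, Shq1 (1.00 ± 0.21), the chaperone of dyskerin, and Nufip1 (0.67 ± 0.16), an assembly factor of box C/D particles. Gar1 thus had a difference of 1.29 where Dkc1 and Nop10 of the same particle had -0.17 and -0.13. Among 15 nucleolar RNA helicases 6 were higher (40%) and none lower, led by Ddx21 (0.93), Ddx10 (0.71), Ddx24 (0.66) and Ddx49 (0.64). Of 13 RNA exosome genes 5 were higher (38.5%), led by Mphosph6 (1.07), Exosc3 (0.80) and Exosc1 (0.73), and 2 lower, among them Exosc5 (-0.67). The RNA polymerase I list had 2 of 15 higher (13.3%, near the share of all genes), the subunits Znrd1 (0.79) and Polr1c (0.43), and none lower. Of 37 tested cytosolic ribosomal proteins, of 67 listed, 2 were higher (5.41%), Rpl12 (0.91) and Rps25 (0.71), none was lower, and the median was 0.03.

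In shock against minor trauma 5.38% of all genes were lower and 4.18% higher. Of the small subunit list 7 of 35 were lower (20%, Pdcd11 -1.14, Tsr1 -0.87, Wdr36 -0.86 and Bysl -0.79 the largest), and of the 60S list 8 of 35 (22.9%, Rrs1 -1.07, Nol9 -1.04, Ppan -1.0 and Eif6 -0.71). The helicases had 3 of 15 lower (20%, Ddx21, Ddx49 and Ddx18), and the partners of small nucleolar ribonucleoproteins 3 of 11 (27.3%, Gar1, Shq1 and Ruvbl1). The exosome had 1 of 13 lower (7.69%, Exosc8) and RNA polymerase I 1 of 15 (6.67%, Taf1c at -1.39), both near the share of all genes. None of these lists had a gene called higher. The ribosomal proteins had 1 of 37 higher, Rpl35 (0.52), and none lower. Rpl35 read 10.95, 11.26 and 10.29 after minor trauma, lowest on minor trauma 3, and 11.41, 11.37, 11.30 and 11.35 in shock. All of these list results include minor trauma 3.

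**Figure D5:**
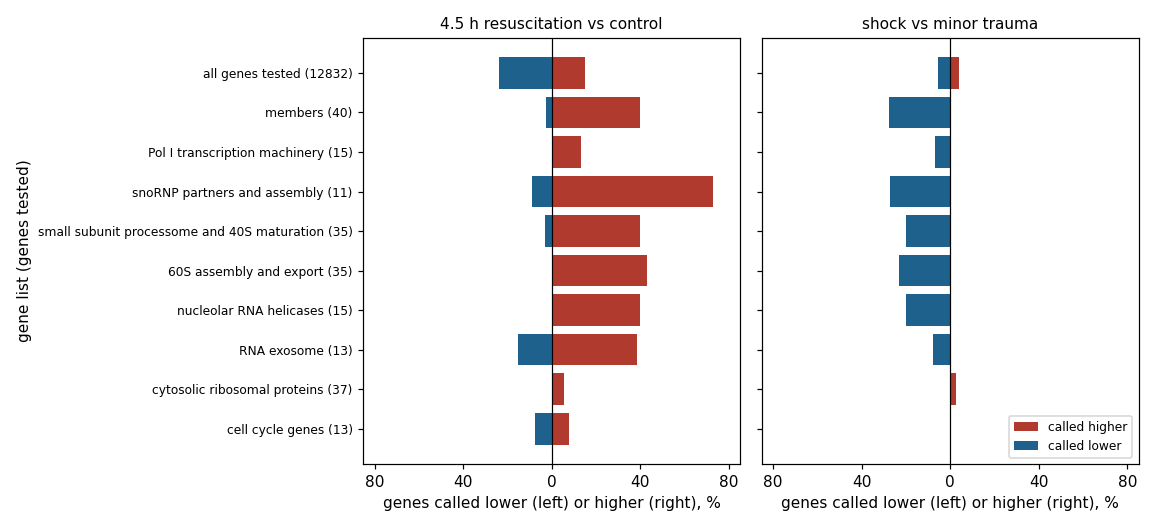
Share of genes called higher (red, to the right) and lower (blue, to the left) at 4.5 h against control and in shock against minor trauma, for all genes tested, the 40 members and lists of other genes, with the number tested in brackets. The members have 40% higher and 2.5% lower at 4.5 h, and ribosomal proteins 5.41% higher.

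Myc mRNA had another time course. It read 5.53, 7.45, 5.56, 6.24 and 6.93 in the controls, 7.08, 6.71 and 7.86 after minor trauma, 8.10, 7.73, 7.74 and 7.60 in shock, 8.49, 8.11, 8.41 and 8.44 at 1 h, and 6.86, 6.54, 6.86 and 6.67 at 4.5 h. Shock and 1 h arrays lay above all controls, and the 4.5 h arrays lay within the control range. Against control the differences were 1.45 ± 0.30 in shock (adjusted p = 0.00676), 2.02 ± 0.30 at 1 h (adjusted p = 9.05e-05) and 0.39 ± 0.30 at 4.5 h (adjusted p = 0.331). Without control 2, which had the highest Myc signal of the controls, the 4.5 h difference was 0.67 (adjusted p = 0.0488). From 1 h to 4.5 h Myc fell 3.09-fold (-1.63 ± 0.32, adjusted p = 0.000455). In the same comparisons with control the members had 0, 0 and 16 genes called higher, where 2.03%, 4.61% and 15.1% of all genes were. These comparisons share the control arrays. At 4.5 h its partner Max (1.78) and the antagonist Mxd1 (1.81) were higher and the paralog Mycl (-1.91) and Mxi1 (-0.55) lower, of 12 genes in the list. That is 16.7% in each direction, where 15.1% of all genes were higher and 23.8% lower.

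Marker mRNAs of several liver cell types also differed between the groups, and their part in the members' changes was not tested. In whole liver, fewer cells of a type and less RNA per cell cannot be told apart. Summed hepatocyte marker signal (9 of 10 markers tested) was 66184 to 72550 in the controls, 72828 to 73566 after minor trauma, 69535 to 73751 in shock, 69102 to 72607 at 1 h and 70783 to 75832 at 4.5 h, with no marker at or below the array median throughout a group. At 4.5 h 3 of the 9 were called higher and 1 lower. Summed neutrophil markers (7 of 12 tested) were 105 to 396, 269 to 558, 510 to 2308, 2668 to 4178 and 4026 to 4555 in the same order. Mpo in the controls, Elane after minor trauma and both in shock were at or below the median on every array. At 4.5 h 5 of the 7 were called higher.

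Kupffer cell and monocyte markers (9 of 10 tested) summed to 2670 to 4104 in the controls and 1205 to 1546 at 4.5 h, with 2 called higher and 6 lower. Endothelial markers (10 of 10) summed to 1878 to 2365 and 1473 to 1643, with 2 higher and 6 lower, and stellate cell markers (9 of 9) to 1899 to 2552 and 1544 to 1650, with none higher and 3 lower. Lymphocyte markers (7 of 12) summed to 107 to 146 and 104 to 195, with 1 higher. Of 13 cell cycle genes tested, 1 was higher, Mcm4 (1.20), and 1 lower, Mcm2 (-1.01). In shock against minor trauma, where 11 members were lower, 2 neutrophil and 3 stellate markers were higher and 1 hepatocyte marker, Hnf4a (-0.49), and 1 macrophage marker, Marco (-1.86), were lower.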

How the data were processed

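Total RNA of whole liver was labelled from oligo-dT primed cDNA and hybridised to 20 arrays, per the labels' protocols. The authors deposited linear signal intensity for 45101 probe sets, made with MAS5 per the submitters' processing notes. The deposited intensities were not scaled to a common level. Probe sets were named from the platform annotation: 34945 had 1 gene, 932 several (left out) and 9160 none. The constant 6 was added, log2 taken and arrays quantile normalized. Probe sets above their array's median on at least 3 arrays (27274) were kept, and each gene was taken from its brightest probe set by mean. One model of 5 group means over 12832 genes was fitted in limma 3.58.1 (R 4.3.3) with empirical Bayes variance moderation with a trend. It gave 8 comparisons and an F test, each with Benjamini-Hochberg adjustment over all genes. The fit was tested on simulated data. The number of arrays limits the precision, and p-values measure the spread between these samples, which may be partly technical. Motifs were searched with Python 3.11.15. Every member is named. Values on each array are given for the 10 members with the largest called rise at 4.5 h, for those called lower, for 7 core members and for a few more that a sentence turns on, chosen after their values were seen (Wdr3 and Utp14a, equal in size as rounded, Rrp9, Rrp36 and Heatr1). From other lists up to 4 called genes with the largest change are named. Members, lists and tests were chosen with earlier results of these data known. Alternatives changed the scaling, constant, filter, probe set rule, array weights, trend, blocks and the arrays used.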

Additional observations from a re-analysis of the deposited data

Results flagged for a closer look

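In 168 checks of the 40 members, Myc and the members' median within groups of 4 or 5 arrays, 8, all of members, had 1 array far from the others, where chance alone gives about 1 in 20. Among the controls the high array was control 5 both times: Nop58 at 8.76 (the others 6.77 to 7.34) and Utp11 at 8.56 (8.11 to 8.22). At 4.5 h, Bop1 was low on array 4 (6.99, others 7.31 to 7.35) and Dkc1 on array 2 (7.76, others 7.96). At 1 h, Rrp9 (4.26, others 5.83 to 6.11) and Wdr12 (6.82, others 7.09 to 7.14) were low on array 1, and Nop53 was high on array 2 (9.40, others 9.19 to 9.21). In shock, Utp20 was high on array 3 (7.01, others 6.72 to 6.76). All values are log2 signals.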

How the results depend on the processing

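Counts below are members called of 40. Shares of all genes called are given above for some of these alternatives only. These counts alone therefore do not set the members apart from all genes. Leaving out 1 array at a time gave 0 to 11 for minor trauma against control (11 without control 5, 0 without control 1, control 2 or minor trauma 3), 0 to 1 for shock, 1 to 5 for 1 h (5 without control 5) and 13 to 19 for 4.5 h against control. It gave 4 (without shock 2) to 15 (without minor trauma 1) for shock against minor trauma, 0 to 1 for 1 h against shock, 10 to 15 for 4.5 h against 1 h, 1 to 6 for 4.5 h against minor trauma (6 without minor trauma 2) and 17 to 25 for the F test. Without control 5 and minor trauma 3 together the counts were 8 for minor trauma, 1 for shock and 5 for 1 h against control, 20 for 4.5 h against 1 h and 1 for 4.5 h against minor trauma. With the values as deposited they were 0 for 1 h and 4 for 4.5 h against control, 6 for shock against minor trauma, 3 for 4.5 h against 1 h and 9 for the F test. With median centring they were 11 for minor trauma and 9 for 4.5 h against control, 17 for shock against minor trauma and 5 for 4.5 h against minor trauma. The mean of all probe sets gave 1 for 1 h against shock and 1 for 4.5 h against minor trauma. Array weights gave 9 for minor trauma, 1 for shock and 4 for 1 h against control. The poly-A set as a block gave 1 for shock against control. Within the spiked set the counts were 10 for 4.5 h against control, 3 for shock against minor trauma, 4 for 4.5 h against 1 h and 11 for the F test. Within the unspiked set they were 0 for minor trauma and 0 for 1 h against control, 5 for 4.5 h against control, 0 for shock against minor trauma, 7 for 4.5 h against 1 h, 0 for 4.5 h against minor trauma and 2 for the F test. These sets hold 10 arrays each, so fewer samples enter. Replicate numbers did not pair the samples: deviations of same-numbered arrays correlated at -0.08 to 0.17, 3 of 36 pairs over 0.1. With the replicate number as a block the counts were 8 for minor trauma and 4 for 1 h against control, and 19 for 4.5 h against control.

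Signs that turned were few. Ncl in shock against minor trauma was -0.52 without minor trauma 3, alone or with control 5, and up to 0.46 without any other 1 array. At 4.5 h against control the mean of all probe sets gave -0.09 for Utp11 and 0.01 for Utp6, and without control 2, where another probe set had the highest mean, Utp6 was 0.64 (0.42 against 1 h). Without 1 of the others it went down to -0.75 (-0.64 against 1 h). Among other pathway and marker genes, at 4.5 h against minor trauma, Esf1 was -0.04 within the unspiked set, Nat10 0.08 with the mean of all probe sets, Rpl35 -0.04 and Rpl27 0 with the values as deposited, and Rps24 -0.04 without probe sets shared between transcripts. That last rule also gave 0.78 for Rpl41 against 1 h and 0.17 for Egfl7 against control. Except where a rule changed the probe set or the samples, the cause was not tested.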
